A study of Mus musculus with 12 samples.

Results

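The 47 genes described here carry out or time the copying of DNA in S phase. They were chosen by symbol, from a list that holds the MCM helicase, the factors that load and start it, the sliding clamp and its loader, the single-strand binding protein RPA, the replicative polymerases and primase, the enzymes of deoxynucleotide synthesis, the G1/S cyclins and E2F factors, and the proteins that rebuild chromatin behind the fork. All 47 were found in each of the 3 deposited tables, which hold 23309 entries for the MLL-AF9 cotransduction and 23235 entries for each of the other two experiments, with 22364 symbols in all 3. All 47 also passed the filter on low values in every table.

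The series holds 12 RNA-sequencing libraries of cultured C57BL/6 mouse bone marrow cells, 2 in each of 6 groups. In the MLL-AF9 cotransduction, lineage-negative (Lin-) bone marrow cells received the leukaemia fusion MLL-AF9 together with PRDM16 or with PRDM16mut, and in the E2A-HLF cotransduction they received the fusion E2A-HLF together with one of these forms. Both sets were collected after 10 days in G418 and puromycin. The third experiment, the MLL-AF9 stable cells, used marrow cells that already carried MLL-AF9 and then received PRDM16 or PRDM16mut, collected after 10 days in puromycin. All groups grew in IMDM with 15% FBS and the cytokines IL3, IL6 and SCF (10 ng/ml of each). Every group carries a fusion oncogene and an introduced form of PRDM16, a zinc finger protein of the PR domain family that the series title calls a histone methyltransferase. The change in PRDM16mut is not named in the labels, nor is it said from which species either form comes, or whether the cells of a group are clonal. Cells with neither form are not among the 12 libraries, so a difference between PRDM16 and PRDM16mut may have been made by either. The design compares PRDM16 with PRDM16mut inside each experiment, and the effect of PRDM16 here means that difference.

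DNA replication starts at origins that the origin recognition complex marks and where Cdc6 and Cdt1 load the ring of MCM proteins in G1. Cdc45 and the GINS complex then turn the ring into a moving helicase, and the clamp Pcna, loaded by replication factor C (RFC), holds the polymerases on the template. Most of these genes are transcribed at the G1/S boundary by E2F factors, which cyclin E and its kinase release from RB proteins, so their summed level in a cell population is widely read as a sign of how many cells are in or near S phase.

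RefSeq promoter sequences (250 bases before to 50 after the start, build GRCm38.p6) were matched for 39 of the 47 genes, and where a gene has several, the first entry was used. The 8 without an entry were Mcm4, Gins1, Gins2, Gins4, Rfc2, Pole, Prim2 and Ccne2. An E2F motif, searched as TTTCCCGC, TTTCGCGC, TTTGCCGC or TTTGGCGC on both strands, was found in 12 of the 39 (30.8%), in 4.31% of 8794 genes tested in any table and in 2.32% of all 27025 genes with a promoter sequence of this length. With every promoter entry of a gene searched, Lig1, Uhrf1 and Dnmt1 also held it, which made 15 of the 39 (38.5%), beside 4.87% of genes tested. Among genes with the motif in their first entry, the 5 with the largest mean absolute log2 fold change over the 3 experiments were picked. Their first-entry promoters are shown here because E2F sites are the textbook control element of replication genes. Capitals mark the matches, and each sequence is read 5′ to 3′ in the direction of its gene. They lie at chr11:98907901-98908200 (Cdc6, plus strand), chr4:108579204-108579503 (Orc1, plus), chr4:136172024-136172323 (E2f2, plus), chr8:75109259-75109558 (Mcm5, plus) and chr5:151651159-151651458 (Rfc3, minus).
Cdc6: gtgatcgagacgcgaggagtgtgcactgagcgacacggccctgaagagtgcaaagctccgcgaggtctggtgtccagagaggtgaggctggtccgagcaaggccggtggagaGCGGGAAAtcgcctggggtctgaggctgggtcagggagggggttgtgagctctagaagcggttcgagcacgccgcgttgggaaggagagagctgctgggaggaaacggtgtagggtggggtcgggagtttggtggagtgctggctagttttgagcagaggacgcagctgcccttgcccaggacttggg
Orc1: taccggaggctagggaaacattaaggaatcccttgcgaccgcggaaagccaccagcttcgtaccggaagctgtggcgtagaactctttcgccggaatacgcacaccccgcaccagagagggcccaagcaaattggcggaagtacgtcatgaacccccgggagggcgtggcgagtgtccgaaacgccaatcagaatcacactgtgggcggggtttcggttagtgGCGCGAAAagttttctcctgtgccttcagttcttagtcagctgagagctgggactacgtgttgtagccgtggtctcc
E2f2: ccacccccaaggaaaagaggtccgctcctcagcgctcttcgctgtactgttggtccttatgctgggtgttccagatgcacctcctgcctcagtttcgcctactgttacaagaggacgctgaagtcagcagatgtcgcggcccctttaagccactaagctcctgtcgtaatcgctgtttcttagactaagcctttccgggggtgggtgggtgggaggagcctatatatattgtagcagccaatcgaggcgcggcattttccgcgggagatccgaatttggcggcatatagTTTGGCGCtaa
Mcm5: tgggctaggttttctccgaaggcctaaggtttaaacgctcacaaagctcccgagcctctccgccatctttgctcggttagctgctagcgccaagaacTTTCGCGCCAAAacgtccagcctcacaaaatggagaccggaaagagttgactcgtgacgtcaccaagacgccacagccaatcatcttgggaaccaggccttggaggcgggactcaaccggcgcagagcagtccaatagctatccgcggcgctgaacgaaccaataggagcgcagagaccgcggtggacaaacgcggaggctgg
Rfc3: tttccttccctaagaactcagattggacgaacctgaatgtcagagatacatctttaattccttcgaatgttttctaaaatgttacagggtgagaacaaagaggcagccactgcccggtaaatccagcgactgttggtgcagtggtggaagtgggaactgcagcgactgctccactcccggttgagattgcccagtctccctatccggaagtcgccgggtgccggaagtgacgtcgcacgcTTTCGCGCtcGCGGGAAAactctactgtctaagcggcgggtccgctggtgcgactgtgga
In Mcm5 the capitals hold 2 overlapping matches, 1 on each strand, and Rfc3 has 2 matches that lie beside each other at its start. In the E2f2 window the match lies after the start, at position 40, and in Cdc6 it lies at position -138.

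Other elements were nearer to their share among all genes tested. CCAAT, the NF-Y element, was found in 66.7% of the 39 and in 39.5% of genes tested. The Sp1 element GGGCGG was found in 69.2% and in 64.6%, and the cell cycle element TTTGAA or TTCGAA (CHR) in 17.9% and in 13.9%. Among 25 genes of mitosis with a promoter sequence (a list described below) none held the E2F motif, and 72% held the CHR element. In the MLL-AF9 cotransduction (values below) the 12 genes with a match had a median log2 change of -0.39 with 11 lower, and the 27 without had -0.47 with 20 lower. With any promoter entry counted, 15 genes had -0.43 with 14 lower, and the other 24 had -0.45 with 17 lower. These differences were not tested. A match is a string of letters in a window and not a measured binding site.

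Levels are in FPKM (fragments per kilobase of gene model, relative to the mapped fragments of a library), which is per length and so can be compared between genes. Prdm16 itself was between 29.5 and 119 FPKM in all 12 libraries. These values do not separate the introduced forms from each other or from the cells' own gene. In the MLL-AF9 cotransduction Prdm16 was at 83.9 and 119 with PRDM16 against 29.5 and 30.1 with PRDM16mut. The groups were closer in the E2A-HLF cotransduction (49.2 and 56.55 against 56.6 and 43.5) and in the stable cells (77.9 and 80.0 against 89.1 and 94.6). The part of this level in the effects below was not tested. Ptprc, the pan-leukocyte marker CD45, was at 43.5 to 61.3 FPKM throughout, and the T cell marker Cd3e was at 0.0208 FPKM or less. The tables hold no read counts, so total depth is unknown. From the step size among low values, replicate 2 was sequenced 1.63 times as deeply as replicate 1 in the MLL-AF9 cotransduction with PRDM16, and the ratio was 0.9205 to 1.175 in the remaining 5 groups.

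The replication genes were well expressed everywhere. Pcna was the most abundant of the 47 in each of the 12 libraries (220.3 to 410.0 FPKM), and the least abundant was Orc1, Gins3 or E2f2 (3.24 to 6.55 FPKM). Summed over the 47, they made up 0.245% and 0.253% of all FPKM in the MLL-AF9 cotransduction with PRDM16 and 0.349% and 0.353% with PRDM16mut. In the E2A-HLF cotransduction the shares were 0.416% and 0.422% against 0.453% and 0.444%, and in the stable cells 0.497% and 0.493% against 0.513% and 0.508%. In all 3 experiments both PRDM16 libraries had the smaller share, and the gap was widest in the MLL-AF9 cotransduction. In the stable cells the summed FPKM of the 47 overlapped, at 2968 and 2917 with PRDM16 against 2928 and 2980 with PRDM16mut. All FPKM there summed to 597691 and 591281 with PRDM16 against 570872 and 586311 with PRDM16mut. The tables were normalized separately, so these levels were not tested across experiments.

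In the MLL-AF9 cotransduction most of the replication machinery fell with PRDM16. Of the 47 genes, 37 were lower, 1 was higher and 9 did not pass (limma on log2 of FPKM + 1, Benjamini-Hochberg adjusted p under 0.05 over all 11071 genes tested). Over all genes tested in that table, 34.0% were lower, 35.6% were higher and 69.5% passed in either direction. The median log2 fold change of the 47 was -0.46, beside 0.01 for all genes tested, and their range was -1.36 to 0.45. For 45 of the 47 the PRDM16 and mutant libraries did not overlap, against 86.3% of all genes. Higher genes made up 51.1% of all calls in the table. They made up 36.0% with library sums made equal outside the genes among the 10 most abundant in any library of the experiment. In bulk RNA, fewer cycling cells and less of these transcripts per cell cannot be told apart.

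**Figure D1:**
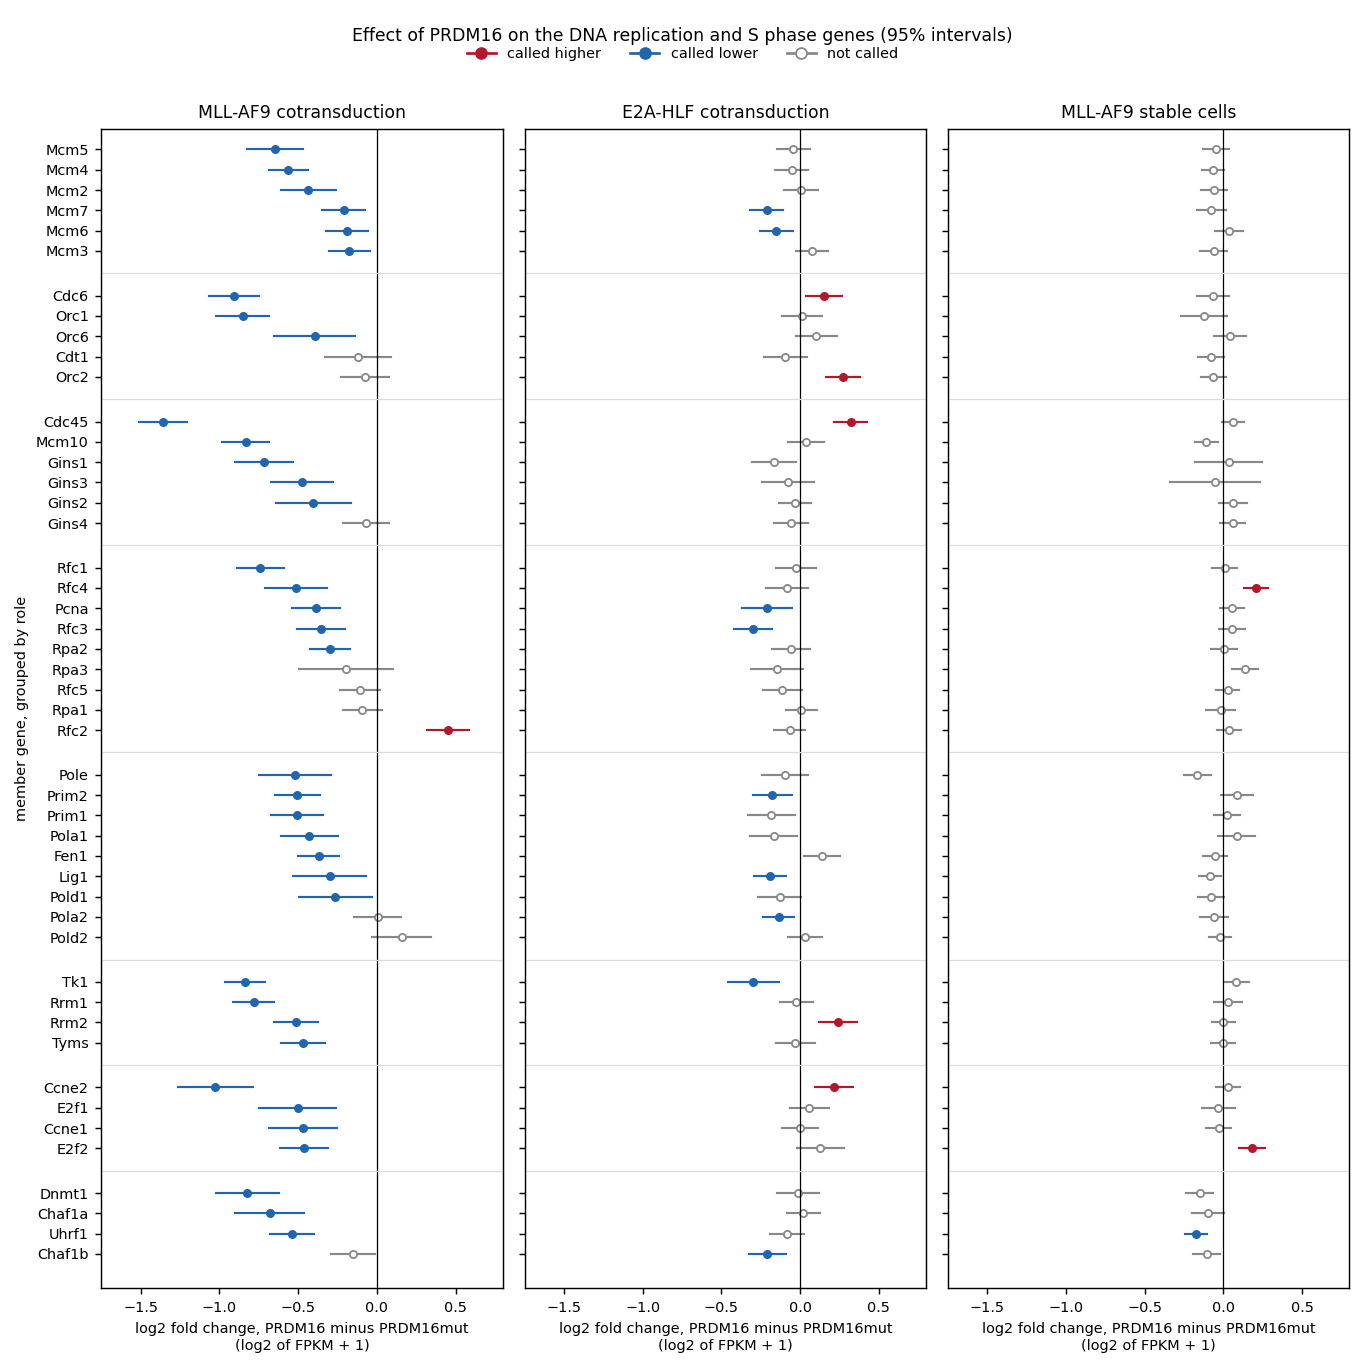
Log2 fold change of each of the 47 genes (x axis, PRDM16 minus PRDM16mut on log2 of FPKM + 1) with its 95% interval from limma, grouped by role, in the 3 experiments. Filled blue points were called lower and filled red points called higher: 37 and 1 in the MLL-AF9 cotransduction, 9 and 5 in the E2A-HLF cotransduction, 1 and 2 in the stable cells.

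The helicase activators held the largest change. Cdc45, the subunit that joins the MCM ring at origin firing, was at 17.7 and 18.8 with PRDM16 against 47.1 and 49.6 with PRDM16mut. Both PRDM16 libraries lay far below both mutant libraries, and the log2 fold change was -1.36 (SE 0.0598, adjusted p = 3.29e-05). Mcm10, which helps the assembled helicase to move, was at 10.8 and 11.4 with PRDM16 against 20.8 and 20.3 with PRDM16mut (-0.83, adjusted p = 0.000148). Of the 4 GINS subunits Gins1 (-0.72), Gins3 (-0.48) and Gins2 (-0.40) fell, and Gins4 had -0.07 without passing. The members of this one complex therefore differed in their measured change, although all 4 had lower values in both PRDM16 libraries. In the annotation 70.7% of the exonic bases of Gins2 also belong to Gse1 on the other strand, which rose (0.76), and the library kit is not known to mark strand.

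Among the genes that mark and load origins, Cdc6, the loader of the MCM ring, was at 5.71 and 6.15 with PRDM16 against 11.9 and 12.1 with PRDM16mut, a log2 fold change of -0.91 (adjusted p = 0.000137). Orc1, the subunit of the origin recognition complex whose level follows the cell cycle, was at 3.36 and 3.24 with PRDM16 against 7.03 and 6.52 with PRDM16mut (-0.85, adjusted p = 0.000199). Both PRDM16 libraries were below both mutant libraries in each. Orc6 also fell (-0.40). Orc2, a core subunit, and Cdt1, which works with Cdc6 and is controlled largely by protein destruction, had -0.08 and -0.12 without passing, and the Cdt1 groups overlapped. All 6 subunits of the MCM ring, which unwinds the template, fell. The change was uneven: Mcm5 had -0.65, Mcm4 -0.56 and Mcm2 -0.44, while Mcm7, Mcm6 and Mcm3 had -0.21, -0.19 and -0.18.

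The cyclin E genes drive entry into S phase. Ccne2 was at 8.32 and 6.84 with PRDM16 against 16.5 and 16.3 with PRDM16mut, a log2 fold change of -1.03 (SE 0.0944, adjusted p = 0.000381). Ccne2 and Cdc45 were the 2 genes of the 47 that fell at least 2-fold on the log2 scale used. Ccne1 (-0.47) and the activator E2F genes E2f1 (-0.50) and E2f2 (-0.46) fell less. E2f2 was at 5.54 and 5.85 with PRDM16 against 8.13 and 8.31 with PRDM16mut.

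All 4 genes of deoxynucleotide synthesis fell. Tk1, the thymidine kinase of S phase, was at 31.3 and 31.2 with PRDM16 against 57.4 and 55.97 with PRDM16mut (-0.84, adjusted p = 8.63e-05). The 2 subunits of ribonucleotide reductase, which makes deoxynucleotides from ribonucleotides, differed: the large subunit Rrm1 had -0.78, and the small subunit Rrm2, at 78.96 and 74.03 with PRDM16 against 110.3 and 109 with PRDM16mut, had -0.51 (adjusted p = 0.000692). The replicates lay close together in all 4 groups of values. Tyms, thymidylate synthase, had -0.47, and a related entry, Tyms-ps, in the tables may share its reads.

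At the fork the clamp gene Pcna fell (-0.39), and the subunits of its loader RFC went in opposite directions. Rfc1, the large subunit, had -0.74, Rfc4 -0.52 and Rfc3 -0.35, and Rfc5 had -0.11 without passing. Rfc2 was the only gene of the 47 that rose in this experiment, at 88.3 and 92.97 with PRDM16 against 66.6 and 65.3 with PRDM16mut (0.45, adjusted p = 0.000955). Both of its PRDM16 libraries were above both mutant libraries, and the call held under each alternative analysis run. Of the exonic bases of Rfc2, 19.1% also belong to Lat2, an adaptor of immune receptor signalling on the other strand, which was at 85.6 and 85.4 with PRDM16 against 56.3 and 53.4 with PRDM16mut (0.63). The part of Lat2 reads in the Rfc2 value was not tested. Rpa2 fell (-0.30), and the other RPA subunits Rpa1 and Rpa3 had -0.09 and -0.20 without passing.

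As a share of the summed FPKM of the 5 RFC subunits, Rfc2 made up 49.3% and 51.0% with PRDM16 against 36.1% and 35.5% with PRDM16mut in the MLL-AF9 cotransduction. It was 37.3% to 39.1% in the 4 E2A-HLF libraries and 32.6% to 33.8% in the 4 stable libraries. The 2 PRDM16 libraries of the MLL-AF9 cotransduction thus stood above the other 10. In the MCM ring the share of Mcm5 was 15.4% and 16.2% with PRDM16 against 19.7% and 19.5% with PRDM16mut in that experiment, and those of the other subunits moved by less than that.

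**Figure D2:**
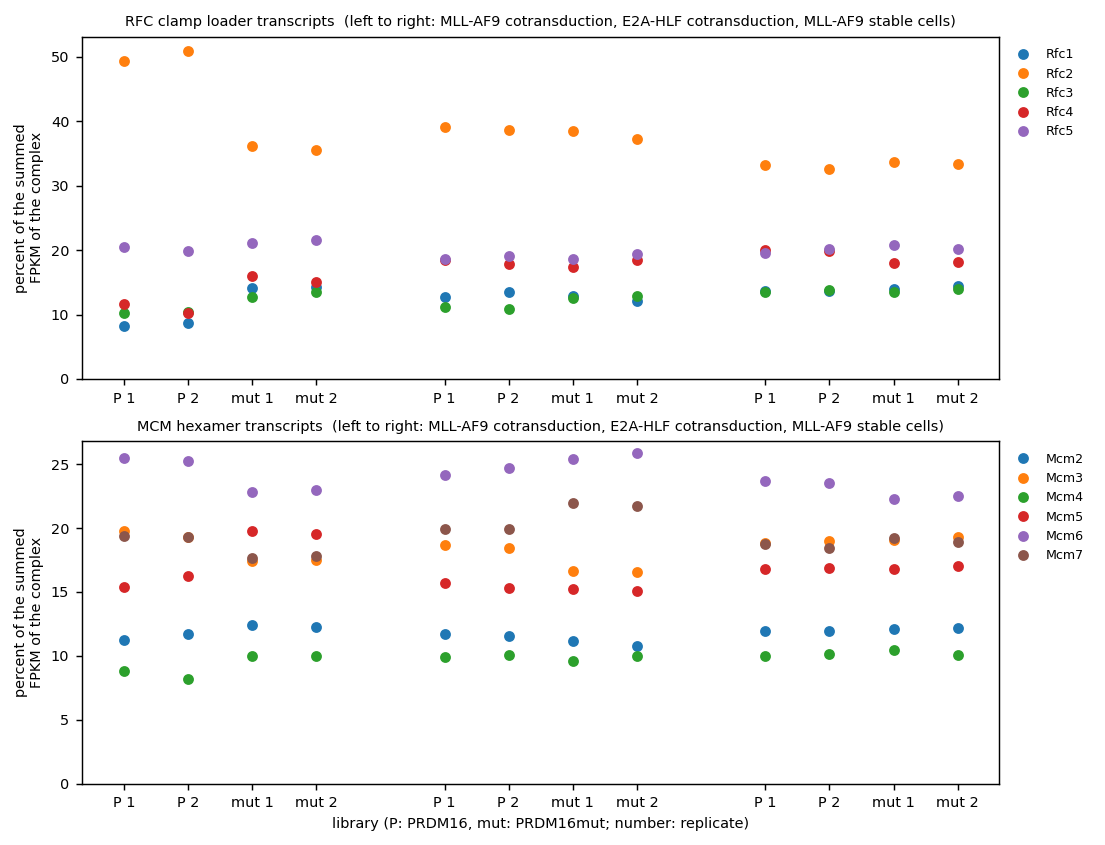
Share of each subunit in the summed FPKM of the RFC clamp loader (top) and of the MCM hexamer (bottom), in percent, with 1 point per library. Rfc2 was at 49.3% and 51.0% in the PRDM16 libraries of the MLL-AF9 cotransduction and lower in each of the other 10 libraries, at 32.6% to 39.1% outside this experiment.

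Of the polymerase, primase and fragment-joining genes 7 of 9 fell. The catalytic subunit of the leading-strand polymerase, Pole (-0.52), both primase subunits Prim2 (-0.51) and Prim1 (-0.51) and the polymerase alpha subunit Pola1 (-0.43) had the larger changes. Fen1, the nuclease that trims Okazaki fragments, had -0.37, Lig1, the ligase that seals them, -0.30, and Pold1 -0.26. In the annotation 78.8% of the exonic bases of Fen1 also belong to Gm10143 and 5.37% to Tmem258, both on the other strand. Gm10143 has no value here. Tmem258 rose (0.51), at 423 and 437 with PRDM16 against 294 and 308 FPKM with PRDM16mut, and its part in the Fen1 value was not tested. Pola2 and Pold2, accessory subunits of the polymerases alpha and delta, had 0.01 and 0.16 without passing, so the subunits of both polymerases were uneven. Of the genes that act behind the fork, Dnmt1, the maintenance DNA methyltransferase (-0.82), Chaf1a, a chromatin assembly subunit (-0.68), and Uhrf1, which brings Dnmt1 to new DNA (-0.54), fell. Chaf1b had -0.15 with an adjusted p of 0.0519. Chaf1a shares 33.6% of its exonic bases with Ubxn6 on the other strand, which rose (0.39).

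Of the 38 calls, 29 held under all 13 alternatives, which include leaving out each library in turn. The other 9 were the smaller changes of Mcm3, Mcm6, Mcm7, Orc6, Gins2, Rfc3, Rpa2, Pold1 and Lig1, each lost when at least 1 of the mutant libraries was left out. Among the weakest, Mcm3 was at 80.5 and 84.1 with PRDM16 against 92.8 and 93.3 with PRDM16mut, and Mcm6 was at 104 and 109.9 with PRDM16 against 122 and 122 with PRDM16mut. Mcm7 was at 78.999 and 84.1 with PRDM16 against 94.2 and 94.9 with PRDM16mut, and Rpa2, of the single-strand binding protein, was at 36.3 and 36.95 with PRDM16 against 44.9 and 45.5 with PRDM16mut. The mutant libraries were the higher ones in all 4. Pold1 was at 18.6 and 22.004 with PRDM16 against 23.9 and 24.997 with PRDM16mut, and Lig1 was at 24.5 and 29.2 with PRDM16 against 32.8 and 33.6 with PRDM16mut, with PRDM16 replicate 2 of both nearer to the mutant libraries than replicate 1. Some of these sizes also rested on 1 PRDM16 library: Pold1 had -0.15 and Lig1 -0.18 without replicate 1, and Orc6 had -0.26 without replicate 2. Markers of several blood cell types moved with the groups in this experiment, in both directions. All 10 neutrophil granule genes were lower, with a summed FPKM of 1110 to 1171 with PRDM16 and 53198 to 54275 with PRDM16mut, which is 0.165% to 0.171% and 8.54% to 8.60% of all FPKM. All 8 mast cell and basophil genes were lower too (109 to 117 against 2149 to 2168 FPKM), and no gene of either list was at 0. The list of 8 macrophage and monocyte markers had 5 calls upward and 2 downward, with sums of 4906 and 4939 with PRDM16 against 3250 and 3235 FPKM with PRDM16mut and no gene at 0. Lyz2, the lysozyme of myeloid cells, was higher (1.16) and the monocyte surface gene Ly6c2 lower (-7.06). All 5 erythroid genes tested were higher, and the 8 genes of that list summed to 837 and 413 with PRDM16 against 151 and 60.0 FPKM with PRDM16mut, most of it from the globin gene Hbb-b1, which was at 770.2 and 351 with PRDM16 against 109 and 48.8 with PRDM16mut. Alas2, the erythroid enzyme of haem synthesis, was at 0.119 FPKM or less, and Hba-a1 was at 0 in PRDM16 replicate 1. The stromal genes Vcam1 and Acta2 were lower, both at 3.29 FPKM or less. The part of these markers in the fall of the replication genes was not tested. Library sums were also made equal outside the genes among the 10 most abundant in any library, an alternative chosen after seeing the data. The median of all genes then moved to -0.16 and that of the 47 to -0.62, and 44 of the 47 were lower. The 47 stood at -0.46 relative to all genes, beside -0.47 as deposited. This scaling divides each library by a constant and moves most genes by nearly the same amount, so that distance could hardly change.

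In the E2A-HLF cotransduction the same genes were split. Of the 47, 9 were lower, 5 were higher and 33 did not pass, where 21.1% of the 11010 genes tested were lower, 22.7% higher and 43.8% called in either direction. The median of the 47 was -0.05, beside 0.01 for all genes, and the range was -0.30 to 0.32. The share of genes called was not above that of genes in general. The groups did not overlap for 36 of the 47, against 73.7% of all genes. Other scalings moved the lower count: 20 were lower with quantile normalization and 17 with upper quartile rescaling, and the share of higher genes among all calls went from 51.8% to 44.7% and 40.4%.

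The 5 genes that rose were the helicase activator Cdc45, the origin recognition and loading genes Orc2 and Cdc6, the reductase subunit Rrm2 and cyclin E2. Cdc45 was at 36.1 and 34.9 with PRDM16 against 28.2 and 28.2 with PRDM16mut (0.32, SE 0.0424, adjusted p = 0.00189). Orc2 was at 34.9 and 35.5 with PRDM16 against 28.3 and 29.7 with PRDM16mut (0.27, adjusted p = 0.00464). Rrm2 was at 142 and 134 with PRDM16 against 115 and 118 with PRDM16mut (0.24, adjusted p = 0.0106). In these 3 genes both PRDM16 libraries were above both mutant libraries. Ccne2 was at 15.3 and 15.9 with PRDM16 against 13.5 and 13.1 with PRDM16mut (0.21, adjusted p = 0.015). Cdc6 was at 14.3 and 14.4 with PRDM16 against 12.6 and 13.04 with PRDM16mut (0.15, adjusted p = 0.0443), and its call was lost whichever library was left out. Ccne2 lost its call without replicate 2 of either group and Rrm2 without replicate 1 of PRDM16.

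The 9 genes that fell had several roles, with 2 MCM subunits, the clamp and a clamp loader subunit, 3 polymerase, primase or ligase genes, a thymidine kinase and a chromatin assembly subunit. Rfc3, a small subunit of the clamp loader, was at 21.7 and 20.99 with PRDM16 against 25.8 and 27.2 with PRDM16mut (-0.30, adjusted p = 0.00436). Tk1 was at 50.05 and 46.4 with PRDM16 against 56.6 and 62.4 with PRDM16mut (-0.30, adjusted p = 0.0135). Mcm7 was at 126 and 125 with PRDM16 against 147 and 144 with PRDM16mut (-0.21, adjusted p = 0.00938). The mutant libraries were the higher ones in each. Pcna was at 357 and 330.2 with PRDM16 against 386 and 410.00 with PRDM16mut (-0.21, adjusted p = 0.041). Chaf1b was at 22.6 and 21.8 with PRDM16 against 25.3 and 26.4 with PRDM16mut (-0.21, adjusted p = 0.0152). Lig1 was at 38.4 and 38.5 with PRDM16 against 44.9 and 43.3 with PRDM16mut (-0.19, adjusted p = 0.0136). For Pcna the PRDM16 libraries were nearly as far from each other as from the nearest mutant library. Prim2, at 20.9 and 22.4 with PRDM16 against 24.4 and 24.8 with PRDM16mut, fell by less (-0.18). Mcm6 was at 152 and 155 with PRDM16 against 169.6 and 172 with PRDM16mut (-0.15), and Pola2 was at 35.6 and 35.9 with PRDM16 against 39.4 and 39.5 with PRDM16mut (-0.14). Of the 14 calls 4 held under all 13 alternatives, those of Cdc45, Orc2, Rfc3 and Tk1, and the other 10 were lost when at least 1 library was left out. In this experiment 7 of the 8 neutrophil granule genes tested were higher with PRDM16, with the 10 genes of the list at 1849 to 1935 against 673 to 687 FPKM in sum. The list of macrophage and monocyte markers had 4 calls upward and 3 downward among 7 tested, and its 8 genes summed to 3510 and 3295 with PRDM16 against 1659 and 1797 FPKM with PRDM16mut. Of 6 mast cell and basophil genes tested 4 were higher and 1 lower, with sums of 137 and 134 against 98.2 and 105 FPKM. No gene of these 3 lists was at 0. Vcam1, an adhesion gene of the stromal list, was at 188 and 197 with PRDM16 against 3.77 and 3.83 with PRDM16mut (5.33), while the other 6 stromal genes were at 1.73 FPKM or less. Of the 6 erythroid genes tested 1 was higher and 1 lower, the second being Car2, a carbonic anhydrase (-1.67), and the B cell receptor gene Cd79b was lower (-1.04). The part of these markers was not tested.

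In the MLL-AF9 stable cells 3 of the 47 passed, 2 higher and 1 lower, where 4.20% of the 10580 genes tested were higher, 2.16% lower and 6.36% called in either direction. The median was -0.02, beside 0.01 for all genes, and the range was -0.17 to 0.21. The groups did not overlap for 34 of the 47, against 60.6% of all genes. Other scalings turned the balance of the calls: 1 of the 47 was higher and 3 lower with quantile normalization or upper quartile rescaling. With library sums made equal outside the genes among the 10 most abundant in any library, 1 was higher and 6 were lower. The share of higher genes among all calls went from 66.0% to 51.6%, 52.5% and 36.1%. Rfc4 was at 45.6 and 44.3 with PRDM16 against 38.6 and 39.2 with PRDM16mut (0.21, adjusted p = 0.0297). E2f2 was at 14.7 and 14.8 with PRDM16 against 13.04 and 12.7 with PRDM16mut (0.18, adjusted p = 0.045). Uhrf1 was at 85.9 and 84.8 with PRDM16 against 95.6 and 97.2 with PRDM16mut (-0.17, adjusted p = 0.0346). In all 3 the libraries of a group lay close together and the groups did not overlap, but each call was lost whichever library was left out. With all libraries 10 of the 47 had an unadjusted p under 0.05 in limma, beside 3042 of the 10580 genes tested. The genes with the largest changes in the MLL-AF9 cotransduction did not pass here, and their 95% intervals bound the change: Cdc45, at 87.6 and 85.9 with PRDM16 against 82.6 and 83.7 with PRDM16mut, had 0.06 (-0.01 to 0.13). Ccne2, at 18.7 and 18.97 with PRDM16 against 18.4 and 18.5 with PRDM16mut, had 0.03 (-0.05 to 0.11). Cdc6, at 22.3 and 20.8 with PRDM16 against 22.5 and 22.8 with PRDM16mut, had -0.07 (-0.17 to 0.04). Rrm2 was between 185 and 188 FPKM in all 4 libraries. The neutrophil granule genes summed to 15442 and 15572 FPKM with PRDM16 against 14720 and 15315 with PRDM16mut, so the sums did not overlap, while as a share of all FPKM they did (2.584% and 2.634% against 2.579% and 2.612%). Of these 10 genes 1 was higher and 2 were lower. Of the 8 monocyte and macrophage genes 3 were higher, with sums of 1678 and 1681 against 1508 and 1551 FPKM. No gene of either list was at 0, and their part was not tested.

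**Figure D3:**
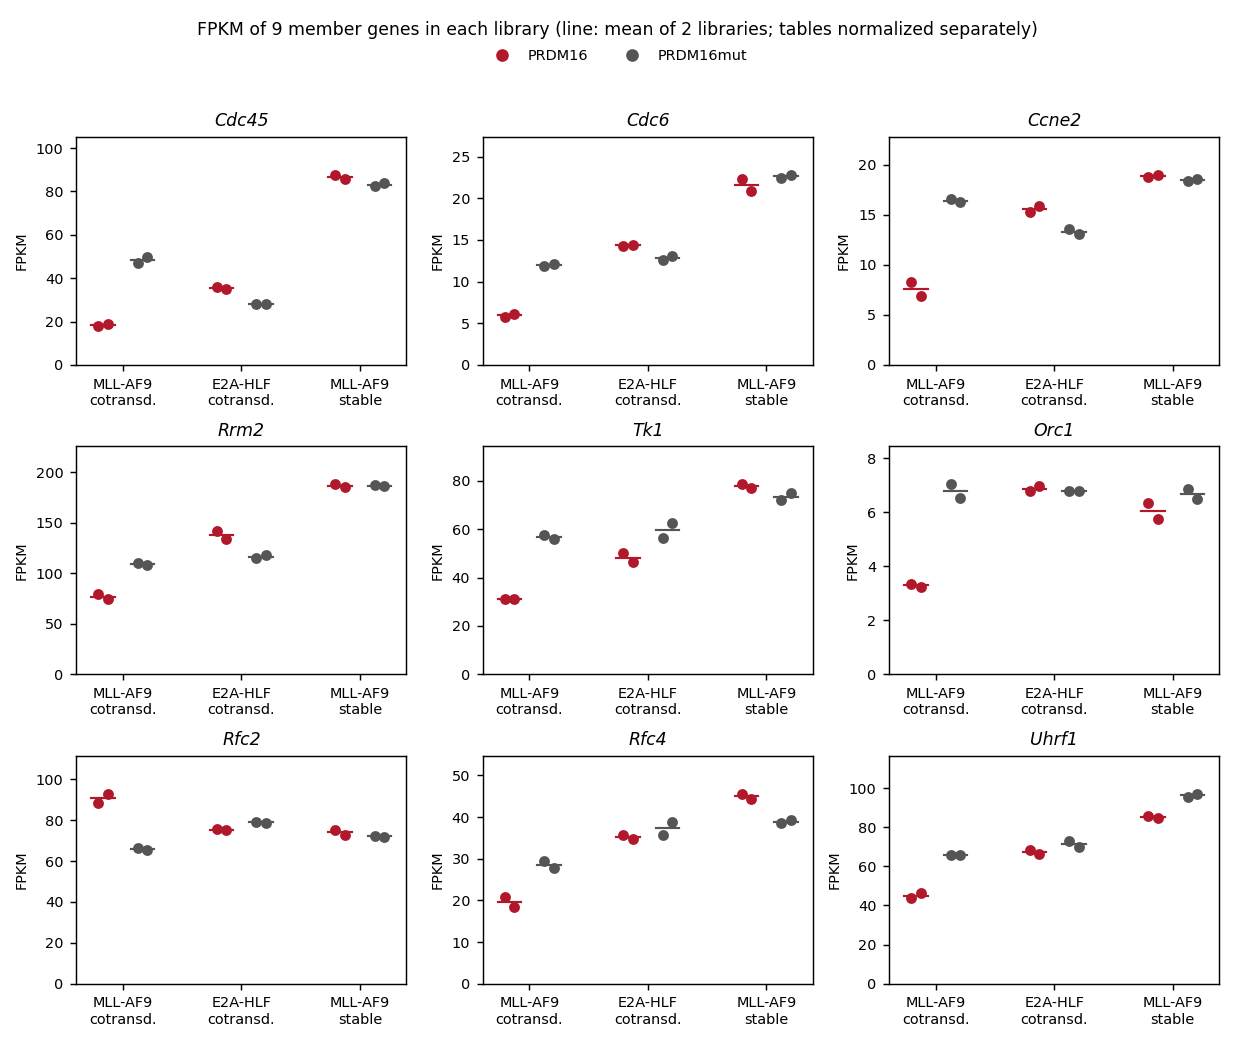
FPKM (y axis, from 0) of 9 of the genes in each library, in red for PRDM16 and in grey for PRDM16mut, with the mean of 2 libraries as a line. Cdc45 was at 17.7 and 18.8 with PRDM16 in the MLL-AF9 cotransduction and between 28.2 and 87.6 in the other 10 libraries, and levels across experiments come from separately normalized tables.

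Called directions combined in few ways over the 3 experiments. Of the 47 genes, 23 were lower in the MLL-AF9 cotransduction and not called in the other two experiments. A further 7 were lower in both cotransductions (Mcm6, Mcm7, Pcna, Rfc3, Prim2, Lig1 and Tk1), and 4 were lower with MLL-AF9 and higher with E2A-HLF (Cdc45, Cdc6, Rrm2 and Ccne2). Rfc4 and E2f2 were lower in the MLL-AF9 cotransduction and higher in the stable cells. Rfc4 was at 20.9 and 18.5 with PRDM16 against 29.5 and 27.7 with PRDM16mut in the MLL-AF9 cotransduction and at 35.7 and 34.7 with PRDM16 against 35.8 and 38.9 with PRDM16mut in the E2A-HLF cotransduction, where E2f2 was at 3.84 and 3.99 with PRDM16 against 3.39 and 3.603 with PRDM16mut. With E2A-HLF neither passed. Uhrf1 was lower in both experiments with MLL-AF9, Orc2 was higher and Pola2 and Chaf1b lower with E2A-HLF alone among the calls, and Rfc2 was the 1 called higher in the MLL-AF9 cotransduction. The 6 genes that passed in none of the 3 were Cdt1, Gins4, Rfc5, Rpa1, Rpa3 and Pold2.

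Whether the effect of PRDM16 differed between experiments was tested in 1 limma fit of all 12 libraries over 9475 genes. Between the cotransductions (MLL-AF9 minus E2A-HLF) it differed for 33 of the 47, 32 of them more negative with MLL-AF9 and 1, Rfc2, more positive, where 71.4% of all genes differed in either direction. The median difference of the 47 was -0.42, beside -0.05 for all genes. Cdc45 differed by -1.68 (95% interval -1.81 to -1.55, adjusted p = 2.37e-09), Ccne2 by -1.24 and Cdc6 by -1.06. Mcm10 and Orc1 each differed by -0.87. The share of the 47 that differed, 70.2%, was close to that of all genes, and the direction was the same in 32 of 33. For the differences between experiments, the share of all genes in each direction was not counted.

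Between the experiments with MLL-AF9 (cotransduction minus stable cells) 35 of the 47 differed, 34 of them more negative in the cotransduction and Rfc2 more positive, where 64.0% of all genes differed. The median was -0.44, beside -0.02 for all genes. The largest differences were those of Cdc45 (-1.42), Ccne2 (-1.05), Tk1 (-0.92), Cdc6 (-0.84) and Rrm1 (-0.81). Between the stable cells and the E2A-HLF cotransduction 12 differed, 7 more positive and 5 more negative in the stable cells, where 37.0% of all genes differed, and the median was 0.03. Tk1 differed by 0.38 (95% interval 0.21 to 0.55), Rfc3 by 0.35, Orc2 by -0.34, Rfc4 by 0.29 and Pcna by 0.27. Each pair of these 3 difference tests shares the libraries of 1 experiment. Without 1 library at a time, the 12 became 7 to 10.

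Other genes of the same pathways were taken from lists chosen by function. Of all genes tested in the MLL-AF9 cotransduction, 34.0% were lower and 35.6% higher. In the MLL-AF9 cotransduction, of 12 further factors of origin licensing and firing 9 fell and 1 rose (median -0.62). Cdc7, the kinase that fires licensed origins, was at 3.19 and 3.805 against 9.39 and 9.58 FPKM (-1.22), Topbp1, a scaffold of origin firing and checkpoint signalling, had -0.98, and Recql4, a helicase needed for initiation, -0.85. Of 18 further fork factors 14 fell and 1 rose (median -0.46), led by Atad5, which unloads Pcna (-1.12), Dna2, a nuclease of Okazaki fragments (-0.88), and Pole2, a subunit of the leading-strand polymerase (-0.88). Neither median was closer to 0 than that of the 47.

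Of 8 genes of histone supply and chromatin copying 7 fell and 1 rose, with the histone chaperone Asf1b at -1.08, the remodeller Hells at -0.86 and the histone mRNA binding protein Slbp at -0.81. Of 6 checkpoint genes 3 fell, the kinase Chek1 (-0.79), Rad17 (-0.68) and Hus1 (-0.29). Nucleotide supply outside the 47 was mixed, with 9 lower and 6 higher of 18. These are 50% and 33.3%, beside 34.0% and 35.6% of all genes tested. Samhd1, which breaks down deoxynucleotides, was at 71.1 and 68.6 against 31.1 and 30.7 FPKM (1.15), the purine synthesis gene Paics rose (0.52) and the salvage kinase Dck fell (-0.88).

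The genes upstream of S phase were mixed as well. Of the E2F and RB network 36.4% were lower and 18.2% higher, beside 34.0% and 35.6% of all genes tested. Of 11 genes of the E2F and RB network 4 fell and 2 rose, and the 3 largest changes were those of Tfdp1, the partner that E2F factors need to bind DNA (-1.08), the repressor E2f8 (-0.998) and the pocket protein Rbl1 (-0.91). Of 14 S phase kinases, cyclins and regulators 8 fell (57.1%) and 4 rose (28.6%). Ccnd1, cyclin D1, was at 9.16 and 9.48 against 1.55 and 1.66 FPKM (1.99, limma adjusted p = 1.13e-05). The kinase Cdk6 had -1.30 and the activating phosphatase Cdc25a -1.24. Ccnd1 and Cdk6 thus went in opposite directions, and Cdk4, also in the list, was not among the genes named for their size of change.

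Genes of mitosis were used as a comparison. Of 29 genes of a cell division list 28 fell in the MLL-AF9 cotransduction and 1, the securin gene Pttg1, rose. The list's median was -0.79, beyond the -0.46 of the replication genes. Mki67, the proliferation marker Ki-67, was at 16.3 and 17.4 against 48.7 and 50.7 FPKM (-1.50), the spindle motor Kif11 had -1.22 and the checkpoint kinase Bub1 -1.21. In the E2A-HLF cotransduction 2 of the 29 rose and 2 fell, with Nusap1 at -0.35, Aurka at 0.25 and Kif23 at -0.23. In the stable cells 3 rose, Nusap1 (0.19), Anln (0.19) and Cenpa (0.14). The difference between the medians of the lists was not tested.

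**Figure D4:**
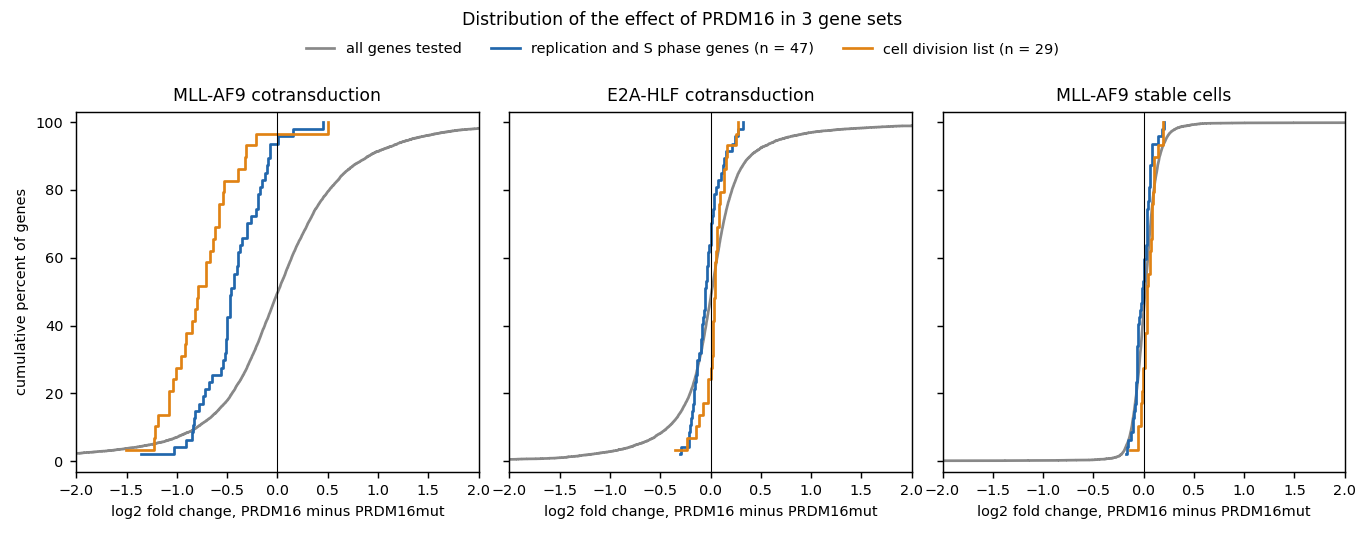
Cumulative percent of genes (y axis) against the log2 fold change PRDM16 minus PRDM16mut (x axis, drawn from -2 to 2) for all genes tested, the 47 replication and S phase genes and 29 cell division genes. In the MLL-AF9 cotransduction the medians were 0.01, -0.46 and -0.79, and in the E2A-HLF cotransduction they were 0.01, -0.05 and 0.04.

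In the E2A-HLF cotransduction the other pathway lists moved in both directions, as did all genes tested (22.7% higher and 21.1% lower). There 2 of 11 licensing and firing factors rose and 1 fell (Recql4 0.35, Mcmbp, an MCM binding protein, 0.19, and Cdc7 -0.25). Of 18 fork factors 1 rose and 3 fell, with Pold4, a small subunit of polymerase delta, at 29.8 and 29.1 against 15.1 and 15.3 FPKM (0.91), and the clamp loading factors Dscc1 and Chtf8 at -0.26 and -0.18. Asf1b rose (0.30) and the histone chaperone Rbbp7 fell (-0.19). In the checkpoint list Rad17 rose (0.52), Hus1 rose (0.17) and Chek1 fell (-0.20). Of the nucleotide supply genes 5 rose and 4 fell, and the largest changes were the falls of Dctd, a deoxycytidylate deaminase (-0.40), Paics (-0.30) and Dck (-0.27).

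Larger changes in that experiment lay among the regulators. In the E2F and RB network 3 rose and 4 fell, with E2f8 at 21.3 and 20.3 against 10.2 and 10.4 FPKM (0.95), Tfdp2, another E2F partner, at -0.66 and the repressor E2f6 at -0.35. Of the kinases, cyclins and their regulators 4 rose and 4 fell. Cdkn1c, the inhibitor p57, was at 1.21 and 1.096 against 8.75 and 8.67 FPKM (-2.17), Cdkn1a, the inhibitor p21, at 159 and 159 against 104 and 107 (0.59), and Ccnd1 had -0.55. These 2 inhibitor genes moved in opposite directions, and Cdkn1b, another inhibitor gene of the list, was not among the genes named for their size of change.

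In the stable cells Cdkn1c and Cdkn1a again differed in opposite directions, at -0.40 and 0.35, and Cdc25a fell (-0.17). E2f4, a repressor of the E2F and RB network, fell (-0.16), as did Cad and Gart, enzymes of pyrimidine and purine synthesis (-0.32 and -0.16), and Samhd1 rose (0.19). Of the licensing, fork, histone supply and checkpoint lists 0 genes passed in limma, where 4.20% of all genes tested were higher and 2.16% lower. An unadjusted p under 0.05 was found for 4 of 11, 4 of 18, 2 of 8 and 1 of 7 genes of these lists, beside 3042 of all 10580 tested.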

How the data were processed

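The deposited tables hold FPKM values that the authors made with Bowtie2 2.0.0.7, TopHat2 2.0.3 and Cuffdiff on mm9, per the submitters' processing notes. The gene annotation and any scaling between libraries are details not given in the sources used here. RNA came from Trizol and column extraction and oligo(dT)-primed TruSeq v2 libraries, per the labels. Values were analysed as log2 of FPKM + 1 with limma 3.58.1 in R 4.3.3 (trended moderated variance, two-sided, PRDM16 minus PRDM16mut), each table alone, after a filter that kept genes reaching an FPKM of 1 in 2 or more of the 4 libraries. The call rule was p under 0.05 after Benjamini-Hochberg adjustment over all genes tested. An exact permutation test of 2 against 2 libraries cannot go below 0.333, so p-values rest on variance shared across genes. Whether replicates were separate cultures is not in the labels, so p-values cover only variation among the libraries at hand, possibly technical. Differences between experiments came from 1 fit of 12 libraries and 6 groups. The pseudocount shrinks fold changes of genes with low values. The scripts were tested on simulated data.

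The members and lists were chosen with earlier results of these data known. Genes named with every library are, per comparison, the 6 called members of highest and the 6 of lowest log2 fold change and those called in opposite directions, and some others beside them. Up to 3 called genes of largest change are named per pathway list, and 5 members per difference test. Exons shared with other genes were read from GENCODE M21 (GRCm38), which is not the build of the tables, and promoters from RefSeq.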

Additional observations from a re-analysis of the deposited data

Results flagged for a closer look

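For 15 results the effect of PRDM16 on a replication gene differed between 2 experiments by a test of the difference itself (limma, 12 libraries, log2 scale, Benjamini-Hochberg adjusted over 9475 genes). Between the MLL-AF9 and E2A-HLF cotransductions these were Cdc45 at -1.68 (adjusted p = 2.37e-09), Ccne2 at -1.24 (9.86e-07), Cdc6 at -1.06 (2.12e-07), Mcm10 at -0.87 (3.2e-07) and Orc1 at -0.87 (3.88e-06). For Cdc45, Ccne2 and Cdc6 the 2 experiments were called in opposite directions, and for Mcm10 and Orc1 the effect with E2A-HLF was 0.04 and 0.01 and did not pass. The E2A-HLF call held under all 13 alternatives for Cdc45, under 10 for Ccne2 and under 3 for Cdc6.

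Between the MLL-AF9 cotransduction and the MLL-AF9 stable cells they were Cdc45 at -1.42 (adjusted p = 1.97e-08), Ccne2 at -1.05 (5.3e-06), Tk1 at -0.92 (2.37e-06), Cdc6 at -0.84 (2.01e-06) and Rrm1 at -0.81 (7.27e-07). Between the stable cells and the E2A-HLF cotransduction they were Tk1 at 0.38 (0.00291), Rfc3 at 0.35 (0.00188), Orc2 at -0.34 (0.00199), Rfc4 at 0.29 (0.0243) and Pcna at 0.27 (0.0214). The experiments differ in fusion, starting cells and drug selection at once, which cannot be told apart.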

How the results depend on the processing

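Of the 47 genes in the MLL-AF9 cotransduction 37 fell and 1 rose; without 1 library at a time, 29 to 41 fell and 1 to 2 rose, and 2 rose with 1 spread for all 12 libraries. With sums made equal outside the genes among the 10 most abundant in any library, the median of -0.46 became -0.62. This setting was chosen after seeing the data, and with it the share of higher genes among all calls went from 51.1% to 36.0%. In the E2A-HLF cotransduction 9 genes fell and 5 rose; 20 fell with quantile normalization and 17 with upper quartile rescaling (medians -0.11 and -0.11), and 3 rose with equal sums. Without 1 library at a time 3 to 8 fell and 3 to 4 rose, with 3626 to 4026 genes called in all.

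In the stable cells 673 genes were called in all; 41 were with no filter on low values, 278 with no variance trend, 298 with shared spread, 1214 with equal sums and 67 to 219 without 1 library at a time (5210 to 8268 in the MLL-AF9 cotransduction, 7698 with all). The 2 that rose became 0 with no filter, no trend or shared spread and 1 with quantile normalization, upper quartile rescaling or equal sums; the 1 that fell became 0 with no filter or no trend, 2 with FPKM of at least 5, 3 with quantile normalization or upper quartile rescaling and 6 with equal sums (median -0.055). The 0 to 0 range without 1 library held for both directions. So 2 higher against 1 lower became fewer higher than lower under the 3 scalings, and the share of higher calls went from 66.0% to 51.6%, 52.5% and 36.1%. The median difference between the cotransductions of -0.42 became -0.31 with quantile normalization, and the 12 genes that differed between the stable cells and E2A-HLF became 7 to 10 without 1 library. With libraries weighted by the spread of their table, also chosen after seeing the data, 32, 16 and 36 genes differed in place of 33, 12 and 35. The cause of these changes was not tested, except that a fit without 1 library has fewer samples and assumes that the lone library varies like the other group.

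Replicate numbers are shared by the groups, but the labels do not say that they pair libraries, and same-numbered libraries deviated together at r = 0.07, 0.29 and 0.32 across genes in the 3 tables. With the replicate number as a block 5 genes fell in the E2A-HLF cotransduction in place of 9, 1 rose in the stable cells in place of 2, and 7 differed between the stable cells and E2A-HLF in place of 12; in the MLL-AF9 cotransduction 36 fell and 1 rose. Total depth is unknown, so no counting error was given.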

Other observations

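Cdc45 lies head to head with Ufd1l, a gene of protein quality control, and the 2 share 52 exonic bases in the annotation, 2.43% of those of Cdc45. Ufd1l was at 18.5 and 18.1 with PRDM16 against 27.8 and 28.4 with PRDM16mut FPKM in the MLL-AF9 cotransduction (log2 fold change -0.59, limma adjusted p = 0.000342) and at 29.1 and 28.6 with PRDM16 against 24.5 and 25.5 with PRDM16mut in the E2A-HLF cotransduction (0.20, adjusted p = 0.0151). In both it was called in the same direction as Cdc45, with a smaller change, and in the stable cells, where Cdc45 had 0.06, it had 0.02 and did not pass. It was singled out after its values were seen.

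Of the 47 genes 16 share exonic bases with another gene in that annotation. Other partners went against the replication gene beside them in the MLL-AF9 cotransduction: Wsb2, which overlaps Rfc5, was at 38.3 and 41.6 against 19.4 and 19.04 FPKM (1.02) where Rfc5 had -0.11, and Gse1 was at 24.5 and 29.9 against 15.4 and 15.8 (0.76) where Gins2 had -0.40. Eif4a2, which overlaps Rfc4, fell with it (-0.71 and -0.52).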
